A study of Mus musculus with 86 samples.

Results

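The developmental and regenerating fibre genes are 8 genes, Myh3, Myh8, Mybph, Actc1, Tnnt2, Myod1, Tmem8c and Capn6. They were chosen by their CPM values in 2 libraries, named G3-1 and S3-5 below, and all 8 were found among the 42807 genes counted by RNA-seq in 86 mouse muscle libraries. The libraries came from the soleus (SO), a muscle rich in slow fibres, and the gastrocnemius (GA), in which fast fibres prevail, of male C57BL/6N mice that were 10 weeks old. Each muscle had 43 libraries in 9 groups. Mice of 8 groups were injected intraperitoneally each day for 10 days with 25 mg/kg of dexamethasone (DEX), a glucocorticoid drug under which muscle wastes. Of these, 6 groups were also gavaged with a herbal extract, called JGT02, JGT03 or JGT04 for peony to liquorice root ratios of 2:1, 1:1 and 1:2, at 100 or 400 mg/kg. A further group received 200 mg/kg of the plant compound resveratrol (RSV), the DEX group was gavaged with buffer, and the non-treated group had buffer by both routes. The DEX and JGT04 400 mg/kg groups had 4 mice and the other groups 5. Extracts and resveratrol were given in a cellulose vehicle and the DEX and non-treated groups had none, so treatment and vehicle cannot be told apart.

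Skeletal muscle fibres form when myoblasts leave the cell cycle, fuse and assemble sarcomeres, first with embryonic and perinatal isoforms that adult isoforms later replace. The same isoforms return for a time when satellite cells rebuild damaged fibres, and they are widely used as markers of regeneration. Myod1 is a transcription factor that commits cells to the muscle lineage, and Tmem8c, now named Mymk, encodes myomaker, a membrane protein needed for myoblast fusion. Myh3 and Myh8 encode the embryonic and perinatal myosin heavy chains. Tnnt2 and Actc1 encode the cardiac troponin T and the cardiac alpha-actin, which skeletal muscle also makes before birth. Mybph encodes myosin binding protein H, a thick filament protein, and Capn6 a calpain without protease activity that is made in embryonic muscle.

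Values are CPM, counts relative to the library total after TMM scaling over all 86 libraries. Library totals ran from 18.8 to 34.6 M counts with a median of 27.5 M. The libraries that stood apart are named here by muscle, group number and mouse. G3-1 is mouse 1 of the GA group on JGT02 at 100 mg/kg, and S3-5 is mouse 5 of the matching SO group. Their TMM factors were 1.98 and 2.14, against 0.865 to 1.18 in the other 84 libraries, so CPM on plain totals was about as many times higher in both. The slow myosin Myh7 stood at 26.2 CPM in S3-5, while its median in the other SO libraries was 6632 CPM. S4-1, labelled SO JGT02 400 mg/kg mouse 1, went against its muscle label: its summed CPM of 11 fast-fibre genes was 126678, where the median of the SO libraries other than S3-5 was 36152, and its summed CPM of 9 slow-fibre genes was 432.6, where that median was 29943. All tests below leave out G3-1 and S3-5.

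The sequences shown are the 250 bases before the RefSeq start (GRCm38.p6) of 4 members that stood high together in G3-1 and S3-5. Capitals mark E-boxes, the pattern CANNTG to which Myod1 and related factors are known to bind, and which reads the same on both strands.
Myh3, chr11:67078050-67078299, plus strand: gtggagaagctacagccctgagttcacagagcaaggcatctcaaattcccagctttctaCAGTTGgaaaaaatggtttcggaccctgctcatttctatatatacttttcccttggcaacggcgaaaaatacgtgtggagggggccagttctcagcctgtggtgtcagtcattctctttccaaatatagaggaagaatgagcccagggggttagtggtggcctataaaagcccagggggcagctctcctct
Myh8, chr11:67276874-67277123, plus strand: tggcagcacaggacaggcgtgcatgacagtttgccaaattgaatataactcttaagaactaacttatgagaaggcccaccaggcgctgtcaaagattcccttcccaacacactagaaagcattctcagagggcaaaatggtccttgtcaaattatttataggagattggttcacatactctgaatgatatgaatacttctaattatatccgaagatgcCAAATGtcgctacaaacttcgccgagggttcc
Mybph, chr1:134193198-134193447, plus strand: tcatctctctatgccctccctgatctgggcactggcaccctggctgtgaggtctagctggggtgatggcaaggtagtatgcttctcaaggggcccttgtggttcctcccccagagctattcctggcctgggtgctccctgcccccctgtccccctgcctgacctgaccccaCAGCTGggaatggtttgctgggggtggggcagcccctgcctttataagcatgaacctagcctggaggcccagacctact
Tnnt2, chr1:135836084-135836333, plus strand: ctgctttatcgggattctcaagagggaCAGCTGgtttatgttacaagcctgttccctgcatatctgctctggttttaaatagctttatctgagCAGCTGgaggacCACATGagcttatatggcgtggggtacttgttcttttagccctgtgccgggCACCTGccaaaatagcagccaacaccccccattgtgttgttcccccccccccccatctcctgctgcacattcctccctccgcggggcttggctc
The Tnnt2 window held 4 E-boxes, starting 223, 157, 145 and 94 bases before the start, and the other windows 1 each. Of 32851 such windows of mouse genes 66.2% held at least 1 E-box and 3.84% held at least 4. The box TATAAA was searched on both strands. It stood as printed in the Myh3 window, on the opposite strand in the Myh8 and Mybph windows, and on either strand in 12.4% of all. These matches describe the letters in the windows, not binding. Windows were found for 6 of the 8 members, and those of Actc1 and Capn6 and a second one of Tnnt2 are not printed because they overlap annotated exons.

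In GENCODE vM21 on GRCm38, Myh3 lies at chr11:67078300-67102291 and Myh8 at chr11:67277124-67308634, both on the plus strand. Because they belong to the myosin family, 11.1% of the 31-base words of Myh3 exons and 18.6% of those of Myh8 occur in other genes, most often Myh2, so part of their counts rests on how the counter shared reads. Mybph (chr1:134193448-134201232, plus strand) has exons over exons of Adora1 on the other strand. Whether counting used strand is not given in the sources used here, so reads of that overlap cannot be assigned with certainty. Actc1 (chr2:114047282-114053548, minus strand), Tnnt2 (chr1:135836354-135852260, plus strand), Myod1 (chr7:46376474-46379099, plus strand), Tmem8c (chr2:27061636-27072179, minus strand) and Capn6 (chrX:143802231-143827414, minus strand) share at most 1.70% of such words.

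The embryonic myosin gene Myh3 had the highest CPM of the 8 members in both G3-1 and S3-5. Myh3 stood at 1170 CPM in G3-1, against a lowest of 2.69, a median of 6.68 and a highest of 26.7 CPM in the other 42 GA libraries. In S3-5 it stood at 1022 CPM, against 8.43, 43.8 and 117 CPM in the other 42 SO libraries. Myh8 reached 618 CPM in G3-1, where the other GA libraries held 1.79 to 14.3 CPM with a median of 3.03. In S3-5 it reached 570 CPM, where the other SO libraries held 2.31 to 19.1 CPM with a median of 4.05. Myh3 was thus 43.9 and 8.76 times, and Myh8 43.3 and 29.9 times, the highest other library of GA and of SO. These values chose the genes and are given as a description.

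The other sarcomere members differed in how far they stood apart. Tnnt2 stood at 209 CPM in G3-1 against 1.60 to 6.47 CPM in the other GA libraries, and at 273 CPM in S3-5 against 3.96 to 15.8 CPM in the other SO libraries. Actc1 stood at 517 CPM in G3-1, close above the 444 CPM of the highest other GA library, a non-treated one, and the median of the others was 90.7 CPM. In S3-5 it stood at 589 CPM, against 14.95 to 37.2 CPM in the other SO libraries. Mybph, likewise, was at 293 CPM in G3-1, against 23.6 to 171 CPM with a median of 43.2 in the other GA libraries. In S3-5 it was at 175 CPM, against 0.653 to 82.1 CPM with a median of 3.99 in the other SO libraries. For Actc1 and Mybph the GA ranges of the other libraries came close to the level of G3-1, which was not so for Tnnt2.

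The fusion and regulatory members behaved as follows. Tmem8c stood at 179 CPM in G3-1 and 188 CPM in S3-5. In the other GA libraries its median was 0.0401 CPM, 12 of 42 had no count and the highest was 3.79 CPM. In the other SO libraries the median was 0.161 CPM, 1 had no count and the highest was 3.77 CPM. Capn6 stood at 89.4 CPM in G3-1, against 2.83 to 6.00 CPM in the other GA libraries, and at 110 CPM in S3-5, against 1.62 to 3.80 CPM in the other SO libraries. Myod1, which adult muscle also makes, stood at 63.9 CPM in G3-1, against 7.46 to 29.3 CPM in the other GA libraries, and at 68.8 CPM in S3-5, against 5.95 to 22.4 CPM in the other SO libraries. Each library beside these in its muscle thus lay below G3-1 or S3-5 for each of the 8 genes. In S3-1 and G3-5, which have the same mouse numbers in the other muscle, Myh3 was at 81.7 and 8.92 CPM and Tmem8c at 0.415 and 0.0409 CPM.

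**Figure D1:**
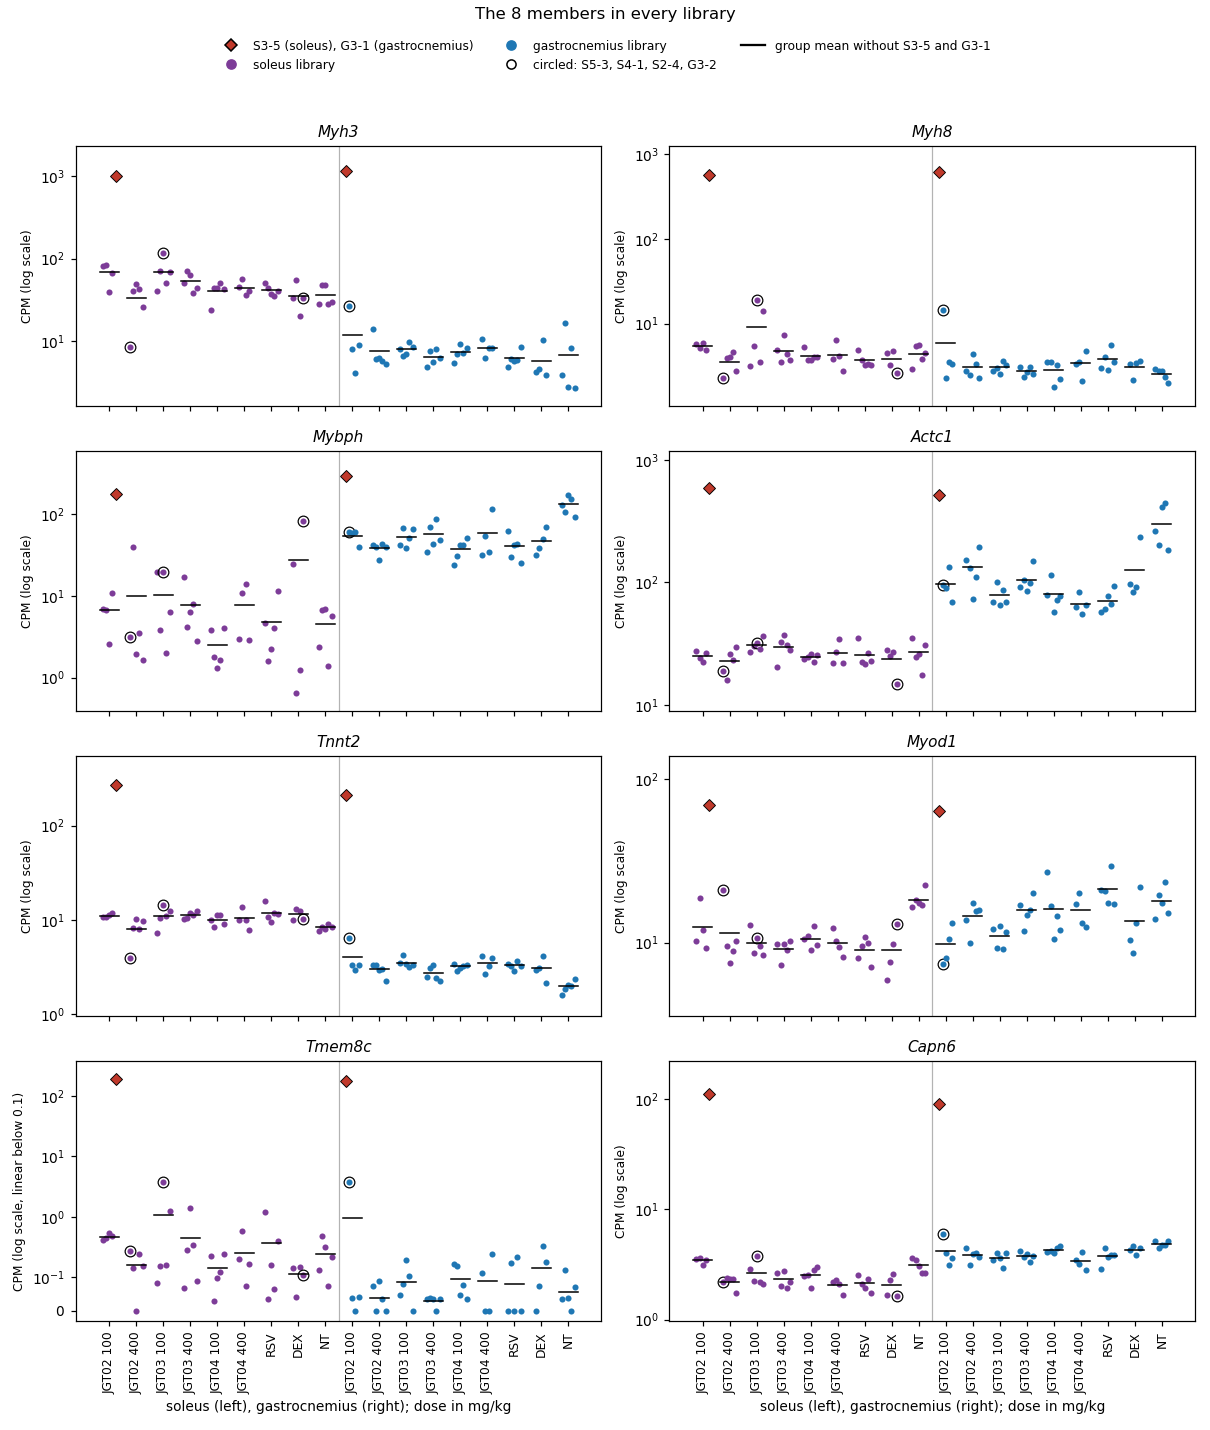
CPM of each member (log axis) in every library, with SO groups left and GA groups right of the grey line. Red diamonds are S3-5 and G3-1, circles mark S5-3, S4-1, S2-4 and G3-2, and bars are group means without S3-5 and G3-1; the diamonds lie above all other points of their muscle in each panel, by the least for Actc1 in GA (517 against 444 CPM).

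Levels of different genes can be compared only per length, here per kilobase of the longest transcript with a consensus coding sequence. On the CPM per kilobase scale Actc1 had the highest level of the 8 members in both libraries, 351 in G3-1 and 400 in S3-5. Myh3 had 194 and 169, Tnnt2 174 and 228, and Tmem8c 129 and 136 CPM per kilobase. Capn6 had the lowest, 25.1 and 30.8. Among the medians of the other libraries Actc1 also had the highest level, 61.6 in GA and 17.6 in SO, and Tmem8c the lowest, 0.0290 in GA and 0.117 in SO.

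Many genes besides the members stood apart in the same libraries. Of 7119 genes at 10 CPM or more in both G3-1 and S3-5, 2202 (30.9%) lay above every other library of the muscle in both, as did 8 of 8 members, and 245 (3.44%) lay at least 4 times above, as did 5 of 8 members. On plain totals the counts were 6776 (71.2%) of 9517 genes and 931 genes (9.78%), an alternative chosen after the data were seen. The members were chosen by their values in these libraries, so their counts and ranks here are only a description. Of genes with a median of 10 CPM or more in the other libraries of each muscle, 2789 lay below every other library in both, and 731 on plain totals. Ranked by the smaller of their ratios to the highest other library, Tmem8c was 5th, Myh8 12th, Tnnt2 28th, Capn6 34th and Myh3 78th, while Myod1, Mybph and Actc1 were 650th, 953rd and 1744th. The 10 leading genes other than predicted ones were Pmaip1, Cthrc1, Chrng, Tmem8c, Ccl8, Dclk1, Msln, Ltbp2, R3hdml and Saa3. Chrng, the fetal subunit of the acetylcholine receptor, stood at 104 CPM in G3-1 and 100.4 CPM in S3-5, against at most 2.05 CPM in the other GA and 1.01 CPM in the other SO libraries.

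Genes that act with the members were read from lists. Of 14 measured genes of fusion and the embryonic sarcomere, 6 lay above all other libraries in both muscles. Of all genes at 10 CPM or more in both G3-1 and S3-5, 30.9% did so. The 6 are not a random draw, since the list was read with these libraries known. Among the 6 were Gm7325, the older symbol of the fusion peptide myomixer, at 22.6 CPM in G3-1 and 21.1 CPM in S3-5 against at most 0.473 CPM in the other GA and 0.209 CPM in the other SO libraries, and Myl4, the embryonic myosin light chain, at 509 and 647 CPM against at most 14.4 and 23.7. In the same list Mybpc1 lay below every other library in both muscles, at 495 and 463 CPM, and Lmod3 did in SO. The list's sum was 3681 CPM in G3-1 against at most 1971 CPM in the other GA libraries. In S3-5 it was 3601 CPM against at least 4385 CPM in the other SO libraries. Of 12 myogenic regulators and satellite cell genes 7 lay above all other libraries in both muscles. Among them were Myog, which drives differentiation, at 125 and 136 CPM, and Pax7, which marks satellite cells, at 10.8 and 16.1 CPM. In the same list Des, Mef2c and Chodl lay below every other library in both muscles, and the list's sum did too, at 3178 CPM in G3-1 against at least 3353 CPM and at 2567 CPM in S3-5 against at least 3827 CPM. Of 11 fetal acetylcholine receptor and denervation genes 9 lay above all others in both muscles, while Chrne, the adult receptor subunit, lay below all others at 2.19 and 1.33 CPM. Of 12 imprinted and growth genes of fetal muscle 7 lay above all others in both muscles, among them Igf2 at 679 and 592 CPM.

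Markers of some other cell types were high with the members, and those of others were not. All 9 cell cycle genes, 8 of 8 measured macrophage markers and 7 of 8 fibroblast and matrix markers lay above every other library in both G3-1 and S3-5. The remaining fibroblast marker, Dcn, went the other way in G3-1, at 166 CPM against at least 225 CPM in the other GA libraries. In S3-5 Dcn was at 198 CPM, within the range of the other SO libraries (92.8 to 232 CPM). The summed macrophage markers reached 2191 CPM in G3-1 against 41.7 to 97.0 CPM in the other GA libraries, and 2626 CPM in S3-5 against 25.0 to 360.0 CPM in the other SO libraries. The summed fibroblast and matrix markers reached 5796 CPM in G3-1 against 376 to 1300 CPM, and 8608 CPM in S3-5 against 221 to 826 CPM. All 6 adipocyte markers lay within the range of the other libraries in both. Of 5 smooth muscle markers 2 lay above and 3 below every other GA library in G3-1, and 0 above and 2 below in S3-5. Of 8 Schwann cell and neuron markers 1 lay above and 3 below in G3-1, with a sum of 48.7 CPM against at least 51.7 CPM, and 1 above and 0 below in S3-5. Adult fast-fibre genes were lower: all 11 fast-fibre genes lay below every other GA library in G3-1, with a sum of 21211 CPM against at least 137648 CPM, and 6 of 11 lay below every other SO library in S3-5. Slow-fibre genes were split in G3-1, where 3 of 9 lay below and 2, Tnni1 and Casq2, above every other GA library, with a sum of 1351 CPM against a median of 1271 CPM. In S3-5 they summed to 1702 CPM, within the range of the other SO libraries through S4-1. In bulk tissue, more cells of a type and more RNA per cell cannot be told apart, and the part of other cell types in the members' levels was not tested. The heart markers Myl7 and Nppa were at 0 or 0.0365 CPM in both libraries and Myh6 at 0.146 and 0.202 CPM, below the other libraries, while Tnni3, the cardiac troponin I, was above them at 0.711 and 1.29 CPM. Actc1 and Tnnt2 are also heart genes. The keratinocyte marker Krt14 was at 0 in both.

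**Figure D2:**
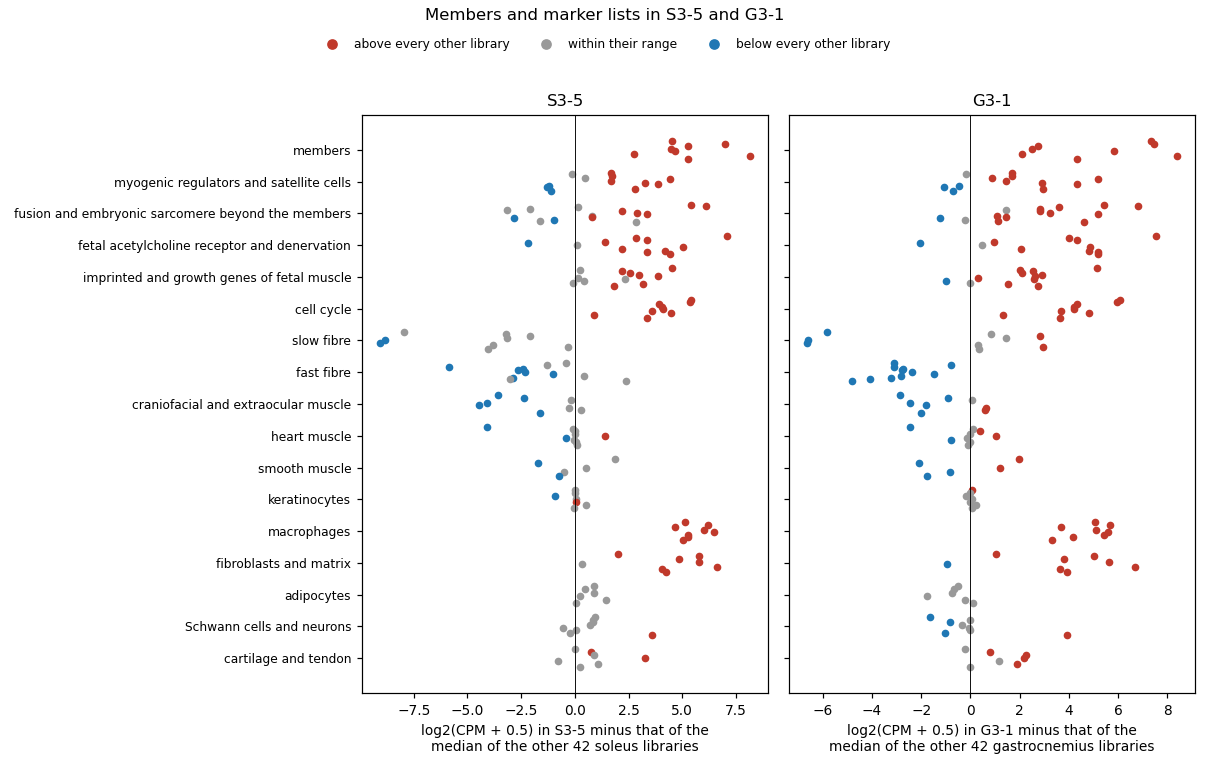
Difference of log2(CPM + 0.5) between S3-5 or G3-1 and the median of the other 42 libraries of its muscle, for the members and 16 marker lists, with 1 point a gene coloured by its place among the other libraries. Members, cell cycle, macrophage and most matrix and fetal receptor genes lie right of 0. In S3-5 9 of 11 fast-fibre and all 9 slow-fibre genes lie left, and in G3-1 all 11 fast-fibre genes lie left and 6 of 9 slow-fibre genes right.

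Single libraries of the same muscles held lower levels of many of these genes. G3-2, another GA JGT02 100 mg/kg library, was the highest of the other GA libraries for 5 members, Myh3, Myh8, Tnnt2, Tmem8c and Capn6. Over the 87 genes that stood at least 50 times above the GA median in G3-1, its excess over that median was 1.93% of the excess of G3-1 (quartiles 1.54% and 2.28%), and 85 of the 87 genes lay above the median. The shares were 1.72% for Myh3, 1.83% for Myh8, 1.59% for Tnnt2, 2.09% for Tmem8c and 2.35% for Capn6. Actc1 had a lower share, 1.12%, and Mybph a higher one, 6.71%, while Myod1 was lower in G3-2 (7.46 CPM) than in any other GA library. No other GA library had a median share above 0.803%.

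In the soleus, S5-3, from the JGT03 100 mg/kg group, was the highest of the other SO libraries for Myh3, Myh8, Tmem8c and Capn6. Its median share of the S3-5 excess was 2.26% over 119 genes (quartiles 1.26% and 3.24%), and those of the members ran from 1.11% for Actc1 to 9.13% for Mybph, with 7.45% for Myh3, 2.65% for Myh8 and 1.92% for Tmem8c. Gm7325, which is no member, had 0.436%. S2-4, a DEX library, had a median share of 10.5% (quartiles 2.66% and 24.2%), but only Mybph (82.1 CPM, a share of 45.7%) stood out among its members. Myh8 was at 2.62 CPM and Tmem8c at 0.111 CPM there, both below the SO median, while the summed macrophage markers were at 360.0 CPM, the highest of the other SO libraries. The source of these shares was not tested.

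**Figure D3:**
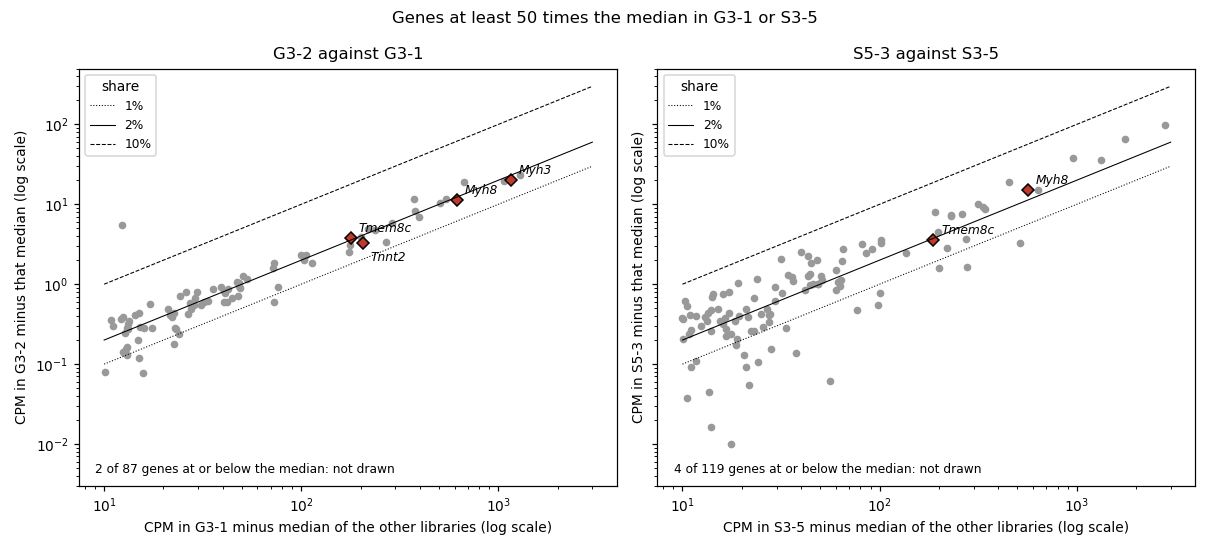
Excess over the median of the other libraries (CPM, log axes) in G3-2 against that in G3-1 for 87 genes, and in S5-3 against that in S3-5 for 119 genes; lines mark shares of 1%, 2% and 10% and red diamonds are members. In G3-2 most points lie near the 2% line, with Myh3 at 1.72%, and in S5-3 they spread more widely.

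In non-treated mice levels of most members differed between the muscles, as did those of many other genes. Of 8 members, 6 differed between SO and GA, 3 higher and 3 lower in SO, beside 57.4% of the 15149 genes tested (28.7% in each direction). Myh3 was at 28.1, 47.1, 47.2, 28.2 and 29.6 CPM in SO and at 3.81, 16.3, 2.78, 8.11 and 2.69 CPM in GA. The muscles did not overlap, and the log2 fold change was 2.42 ± 0.36 (SE; adjusted p = 2.55e-08, edgeR quasi-likelihood test, n = 5 and 5). Tnnt2 was higher in SO, at 7.66 to 9.12 CPM with a median of 8.34 in SO and 1.60 to 2.37 CPM with a median of 2.00 in GA (log2 2.09 ± 0.18). Myh8 averaged 4.44 ± 1.14 CPM in SO and 2.56 ± 0.38 CPM in GA (SD; log2 0.81 ± 0.33, adjusted p = 0.0317). That call was lost, with adjusted p values of 0.0561 to 0.0806, without GA mouse 4 or 5 or SO mouse 2 or 3. The titles of all libraries begin alike with Batch1. Earlier results of these data, not shown here, split the libraries into 3 sets in their listed order. The labels do not name these sets, and what they stand for is not known. The SO and GA non-treated groups stand in different sets. With the set as a term Myh8 did not pass (adjusted p = 0.230) and the other 5 did. Only the GA JGT04 100 mg/kg group stands in both of those sets, so the term rests on its libraries.

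Mybph and Actc1 ran the other way. Mybph was at 2.35, 6.74, 6.80, 1.39 and 5.60 CPM in SO and at 130.3, 107, 171, 153 and 92.7 CPM in GA, 28.2-fold lower in SO (log2 -4.82 ± 0.68). Actc1 was at 35.6, 24.8, 26.0, 17.7 and 30.8 CPM in SO and at 262, 203, 411, 444 and 184 CPM in GA, 10.99-fold lower in SO (log2 -3.46 ± 0.25). Capn6 was modestly lower in SO, with 3.10 ± 0.46 CPM in SO and 4.83 ± 0.29 CPM in GA (log2 -0.62 ± 0.14). Myod1 averaged 18.3 ± 2.4 CPM in SO and 17.9 ± 3.8 CPM in GA and did not pass, nor did Tmem8c. Of 13 other tested genes of fusion and the embryonic sarcomere 9 were higher and none lower in SO, and of 11 myogenic regulators 8 were higher and none lower. The fusion and sarcomere list holds slow troponins such as Tnni1, which the adult soleus also makes.

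Mybph and Actc1 fell with dexamethasone in the gastrocnemius. Of 7 members tested in GA, 2 fell and 1 rose, beside 26.4% of 14428 genes changed (13.2% in each direction); Tmem8c was left out of that fit for its low counts. Mybph was at 31.4, 38.0, 49.4 and 69.0 CPM in the DEX group and at 130.3, 107, 171, 153 and 92.7 CPM in the non-treated group. Every DEX library lay below every non-treated one, with a log2 fold change of -1.50 ± 0.30 (adjusted p = 0.000217, edgeR, n = 4 and 5). Actc1 was at 97.1, 83.4, 92.5 and 237 CPM in the DEX group and at 262, 203, 411, 444 and 184 CPM in the non-treated group (log2 -1.26 ± 0.28, adjusted p = 0.000554). Only DEX mouse 4 overlapped the non-treated range.

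Tnnt2 rose in the gastrocnemius, with 2.96, 3.08, 4.16 and 2.15 CPM in the DEX group and 1.60, 1.86, 2.05, 2.00 and 2.37 CPM in the non-treated group (log2 0.61 ± 0.18, adjusted p = 0.0108). Without DEX mouse 3 its adjusted p was 0.0940. Myh3 was at 4.22, 4.52, 10.1 and 3.87 CPM in the DEX group and at 3.81, 16.3, 2.78, 8.11 and 2.69 CPM in the non-treated group, ranges that overlap. Its log2 fold change was -0.30 ± 0.42, and Myh8, Myod1 and Capn6 did not pass either. Myod1 passed without DEX mouse 4 (log2 -0.76, adjusted p = 0.0146). The summed fibroblast and matrix markers were also lower in these libraries, 477 to 661 CPM in the DEX group and 887 to 1300 CPM in the non-treated group, and 7 of 8 of them fell. Adipocyte markers rose, 5 of 5, with sums of 75.5 to 102 CPM in the DEX group and 17.9 to 41.0 CPM in the non-treated group. The part of these cell types in the changes of the members was not tested.

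In the soleus, Myod1 and Capn6 fell with dexamethasone. Of 8 members 2 fell and 2 rose, beside 39% of 14708 genes changed, 16.7% falling and 22.4% rising. Myod1 was at 5.95, 7.59, 9.75 and 12.99 CPM in the DEX group and at 16.5, 18.2, 17.4, 17.0 and 22.4 CPM in the non-treated group. The groups did not overlap, and the log2 fold change was -0.98 ± 0.22 (adjusted p = 0.000611, edgeR, n = 4 and 5). Capn6 was at 1.68, 2.28, 2.59 and 1.62 CPM in the DEX group and at 3.63, 3.5, 3.07, 2.63 and 2.67 CPM in the non-treated group (log2 -0.58 ± 0.17, adjusted p = 0.00650). These groups did not overlap either, though by little.

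The members that rose in the soleus did so less firmly. Tnnt2 was at 10.1, 13.1, 12.4 and 10.2 CPM in the DEX group and at 7.66, 8.34, 8.03, 9.12 and 8.5 CPM in the non-treated group, without overlap (log2 0.48 ± 0.18, adjusted p = 0.0288). The adjusted p rose to 0.0693, 0.0889 and 0.0747 without non-treated mouse 1, DEX mouse 2 and DEX mouse 3. Mybph was at 24.2, 0.653, 1.24 and 82.1 CPM in the DEX group and at 2.35, 6.74, 6.80, 1.39 and 5.60 CPM in the non-treated group (log2 2.58 ± 0.90, adjusted p = 0.0209). Its DEX libraries lay both above and below the non-treated ones, and without S2-4 the log2 fold change was 0.92 with an adjusted p of 0.474. It also failed without non-treated mouse 1 or 4 (adjusted p = 0.0507 and 0.0541). Myh3, Myh8, Actc1 and Tmem8c did not pass.

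The other developmental genes had no common direction under dexamethasone. Among 13 tested genes of fusion and the embryonic sarcomere, 4 rose and 2 fell in SO, and 2 rose and 3 fell in GA. Without S2-4 2 rose and 2 fell in SO, and in GA 1 rose without non-treated mouse 1, 2 or 5 or DEX mouse 3 or 4. Vim, an intermediate filament gene, rose in SO (log2 1.59 ± 0.25), and Myl4 fell in GA (log2 -0.93 ± 0.28). Among 11 tested myogenic regulators 1 rose and 3 fell in SO, with Myf6 at log2 -0.42 ± 0.12, and 2 rose and 2 fell in GA, where Des rose (log2 0.37 ± 0.05). Without DEX mouse 3 in SO 2 of these rose, and in GA 1 rose without non-treated mouse 2, 3 or 4 or DEX mouse 2 or 3. Of 11 fetal receptor and denervation genes 3 rose and 1 fell in SO, but without S2-4 none rose and 3 fell, and without DEX mouse 1 2 fell. Of 8 macrophage markers 4 rose in SO (edgeR), and without S2-4 none passed, with 0 at an unadjusted p under 0.05. Adipocyte markers rose in SO, 5 of 5 tested with and without S2-4, summing to 63.2 to 295 CPM in the DEX group and 4.67 to 48.0 CPM in the non-treated group. Of 7 Schwann cell and neuron markers 5 rose and 4 without S2-4, and of 3 tested cell cycle genes 3 rose, 1 without S2-4. Their part in the members' changes was not tested.

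Of the 8 members, Mybph and Actc1 passed the test of a difference in response between the muscles. The DEX change in SO minus that in GA was log2 4.03 ± 0.92 for Mybph (adjusted p = 0.000505) and 1.04 ± 0.35 for Actc1 (adjusted p = 0.0164), both edgeR interaction tests, beside 30.8% of 15149 genes (13.6% higher and 17.2% lower). Without S2-4 the Mybph difference was 2.33 (adjusted p = 0.0486). With a replicate block that takes libraries of the same group and mouse number in SO and GA as 1 mouse, it was 2.87 and missed the threshold (adjusted p = 0.0515), while Actc1 passed. That of Actc1 missed the threshold without GA non-treated mouse 4 or GA DEX mouse 2 (adjusted p = 0.0514 and 0.0523). For the other 6 members the test does not show that they responded alike, since for Myod1, for example, the difference was -0.61 ± 0.33.

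**Figure D4:**
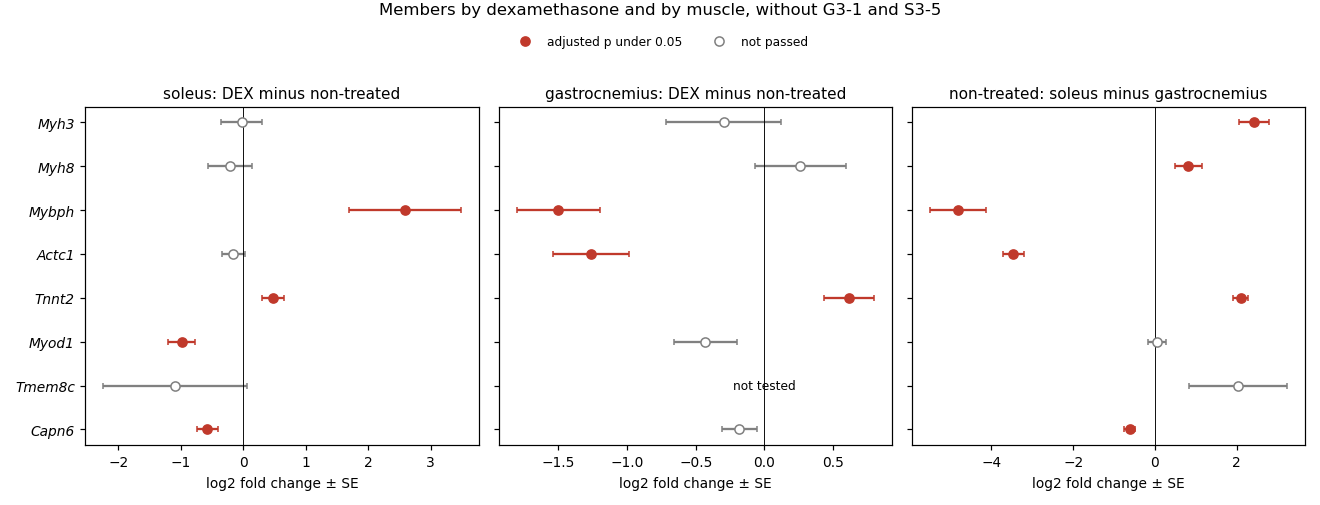
Log2 fold change ± SE of each member for DEX against non-treated in SO and in GA and for SO against GA in non-treated mice, without G3-1 and S3-5; filled red points passed at an adjusted p under 0.05. Mybph and Actc1 lie left of 0 in GA under DEX (-1.50 and -1.26) and far left for SO against GA (-4.82 and -3.46).

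Against the DEX group, few pairs of a member and a treatment passed, and in neither muscle was their share above that of all genes. All 7 comparisons of a muscle share the same 4 DEX libraries. In the gastrocnemius 2 of 49 pairs of a member and a treatment passed, beside 6.36% of all gene and treatment pairs (3.22% higher and 3.13% lower). Both were of Actc1, lower with JGT04 400 mg/kg (63.1, 84.2, 54.8 and 66.0 CPM; log2 -0.92 ± 0.29, adjusted p = 0.0318, edgeR) and with RSV (57.1, 60.7, 77.2, 66.2 and 93.3 CPM; log2 -0.84 ± 0.27, adjusted p = 0.0413) than with DEX alone (97.1, 83.4, 92.5 and 237 CPM). Without DEX mouse 4, at 237 CPM, the log2 fold changes were -0.45 and -0.36 with adjusted p values of 0.362 and 0.470. The JGT04 call was also lost without mouse 1, 3 or 4 of its own group (adjusted p = 0.0696 to 0.087, edgeR). That with RSV was lost without RSV mouse 1, 2, 3 or 4 (adjusted p = 0.0547 to 0.0981). Of all genes, 11.3% passed with JGT04 400 mg/kg and 9.47% with RSV. With JGT04 400 mg/kg 3 of 8 macrophage and 3 of 8 fibroblast and matrix markers were lower too, and with RSV 1 macrophage marker, and their part was not tested. Both groups stand in another set, by listed order, than the GA DEX group. With the set as a term neither passed (adjusted p = 0.592 and 0.649). Only the JGT04 100 mg/kg group stands in both GA sets, so the term rests on G7-1, G7-2 and G7-3 against G7-4 and G7-5.

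In the soleus 8 of 56 pairs passed, beside 27.4% of all gene and treatment pairs (11.6% higher and 15.8% lower). By treatment, 31.5% of genes passed with JGT02 100 mg/kg, 36% with JGT02 400 mg/kg, 25.5% with JGT03 100 mg/kg, 26.8% with JGT04 100 mg/kg and 31.9% with RSV. With JGT02 100 mg/kg, Capn6 was at 3.54, 3.65, 3.12 and 3.48 CPM against 1.68, 2.28, 2.59 and 1.62 CPM in the DEX group, without overlap (log2 0.72 ± 0.17, adjusted p = 0.00205, n = 4 and 4, edgeR). Leaving out each of the 8 libraries in turn gave log2 fold changes of 0.63 to 0.86, all past the threshold. Myh3 was at 81.7, 82.9, 39.1 and 67.4 CPM with JGT02 100 mg/kg against 33.0, 54.4, 20.02 and 32.9 CPM in the DEX group (log2 0.92 ± 0.34, adjusted p = 0.0368). The Myh3 call was lost in 6 of 8 such fits, with adjusted p up to 0.133. Tnnt2 was lower with JGT02 400 mg/kg (log2 -0.53 ± 0.18, adjusted p = 0.0192), where S4-1 held 3.96 CPM and the other libraries 8.05 to 10.1 CPM, and did not pass without S4-1 (log2 -0.36, adjusted p = 0.0755). This Tnnt2 call was also lost without DEX mouse 2 or 3 (adjusted p = 0.0633 and 0.0538, edgeR).

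Each of the other calls in the soleus was lost on leaving out a single library, and for some any of several libraries. With JGT03 100 mg/kg Myh3, Myh8 and Tmem8c passed, Myh8 at 3.15, 5.38, 19.1, 3.53 and 14.2 CPM against 4.56, 3.26, 4.72 and 2.62 CPM in the DEX group (log2 1.25 ± 0.35, adjusted p = 0.00871). Without S5-3 none of the 3 passed, with adjusted p values of 0.114 for Myh3, 0.0799 for Myh8 and 0.202 for Tmem8c. Myh3 also failed without DEX mouse 1, 3 or 4 (adjusted p = 0.0501, 0.106 and 0.0701, edgeR). Mybph was lower with JGT04 100 mg/kg (2.50 ± 1.28 CPM, log2 -3.45 ± 0.95) and with RSV (4.81 ± 3.99 CPM, log2 -2.51 ± 0.89) than with DEX alone (27.1 ± 38.3 CPM, SD), and without S2-4 neither passed (adjusted p = 0.213 and 0.547). With RSV Mybph also failed without RSV mouse 1, 2, 3 or 4 (adjusted p = 0.0548 to 0.0694, edgeR). Markers of other cell types were also lower than in the DEX group. Of 8 macrophage markers 4 were lower with JGT04 100 mg/kg, 8 with RSV, 4 with JGT03 100 mg/kg, and 7 with each dose of JGT02. Of 8 fibroblast and matrix markers 7 were lower with RSV and with JGT02 400 mg/kg, 3 with JGT04 100 mg/kg, and 2 with JGT02 or JGT03 at 100 mg/kg. Of 7 Schwann cell and neuron markers 4 were lower with each extract at 100 mg/kg, 3 with RSV and 2 with JGT02 400 mg/kg. The summed macrophage markers were at 34.8 to 46.4 CPM with JGT04 100 mg/kg and 26.9 to 59.5 CPM with RSV, against 39.9 to 360.0 CPM in the DEX group. The part of these cell types in the members' values was not tested.

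The SO groups on JGT03, JGT04 and RSV stand in another set than the SO DEX group. With the set as a term 3 pairs passed, Myh3 and Capn6 with JGT02 100 mg/kg and Tnnt2 with JGT02 400 mg/kg. Only the JGT02 400 mg/kg group stands in both SO sets. The term thus rests on S4-1, S4-2 and S4-3 against S4-4 and S4-5, and cannot separate set from treatment elsewhere. The Tnnt2 call includes S4-1, without which it did not pass in the fit that had no set term. In that fit it did not pass without DEX mouse 2 or 3 either.

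**Figure D5:**
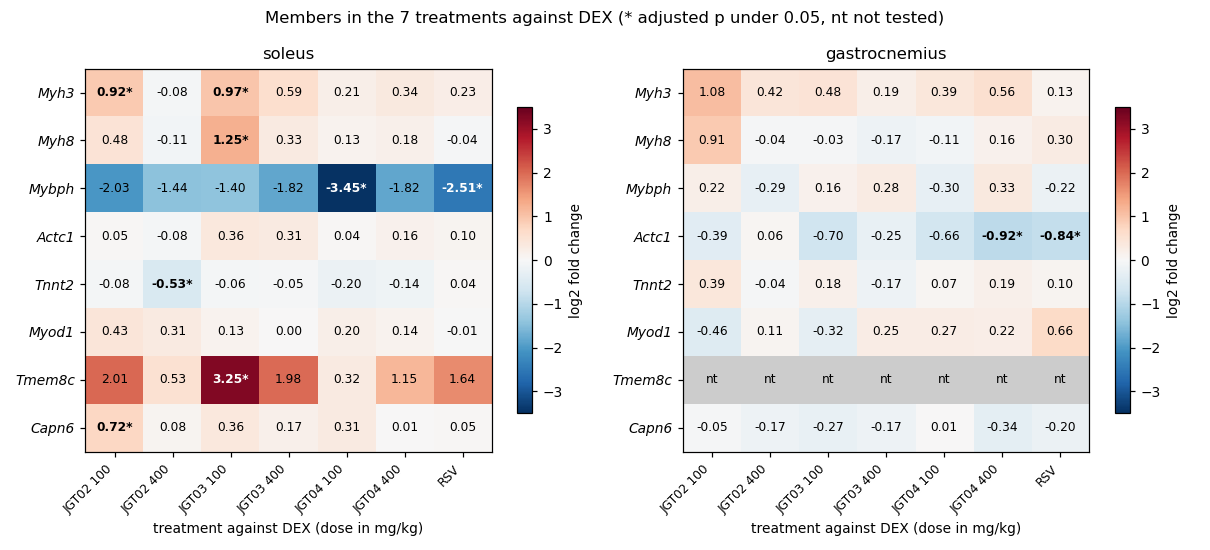
Log2 fold changes of the members in the 7 treatments against DEX in SO and GA, without G3-1 and S3-5; stars mark an adjusted p under 0.05, and nt marks a gene not tested. The 8 starred cells in SO range from -3.45 (Mybph, JGT04 100 mg/kg) to 3.25 (Tmem8c, JGT03 100 mg/kg), and the 2 in GA are both Actc1.

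Ordered by group mean, Myh3 in SO ran from 33.5 ± 16.5 CPM with JGT02 400 mg/kg to 69.3 ± 29.4 CPM with JGT03 100 mg/kg, and neighbours in the order differed by less than the larger of their SDs. The lowest group holds S4-1 at 8.43 CPM (group median 40.5) and the highest S5-3 at 117 CPM (group median 69.2). By median JGT02 100 mg/kg was higher, at 74.6 CPM. In GA Myh3 ran from 5.68 ± 2.96 CPM with DEX to 11.9 ± 10.1 CPM with JGT02 100 mg/kg, again with neighbours within their spread. That highest group holds G3-2 at 26.7 CPM, and its median was 8.49 CPM. For Myod1 in SO the non-treated group was highest (18.3 ± 2.4 CPM), and the next, JGT02 100 mg/kg, stood at 12.5 ± 4.2 CPM. For Actc1 and Mybph in GA the non-treated group was highest as well, at 301 ± 120 and 131 ± 32 CPM, and the next were JGT02 400 mg/kg at 133 ± 46 CPM for Actc1 and JGT04 400 mg/kg at 58.8 ± 39.0 CPM for Mybph.

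Outside G3-1 and S3-5 the members did not follow each other closely. Over the 42 other SO libraries the Spearman correlation with Myh3 was 0.50 for Myh8, 0.45 for Tnnt2 and 0.36 for Tmem8c, and over the 42 other GA libraries it was 0.09 for Myh8, 0.41 for Tnnt2 and -0.27 for Actc1. Actc1 and Mybph correlated at 0.43 in GA and 0.13 in SO, and Actc1 and Tnnt2 at -0.62 in GA and 0.40 in SO. Libraries of a group, and of a set in listed order, are among these points, and no p is given. The genes whose pattern was most like that of Myh3 were Ablim1 (0.75), Ces5a (0.75), Atp1b4 (0.74), Itga9 (0.73) and Leprel1 (0.72) in SO, and Nnt (0.61), Apol6 (0.60), Slc20a2 (0.60), Myoz2 (0.58) and Eny2 (0.58) in GA. No member was among these 10.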

How the data were processed

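RNA-seq expected counts per gene symbol were deposited for 86 libraries. Per the submitters' processing notes the authors' tools were RSEM 1.3.3, STAR 2.7.3a, FastQC 0.11.9 and Trim Galore 0.6.5, with GRCm38 as build. Settings, gene annotation and strand setting are not given in the sources used here. RSEM shares ambiguous reads between genes, and 92.0% of the deposited expected counts were whole. Counts were rounded, filtered with filterByExpr, TMM-scaled and tested with the quasi-likelihood test of edgeR 4.0.16 (R 4.3.3), Benjamini-Hochberg adjusted over all genes of a fit, with 0.05 as threshold. Each muscle had 1 fit of 42 libraries over its 9 groups, and the muscles were compared in 1 fit of 84, all without G3-1 and S3-5. Library totals of 18.8 to 34.6 M counts leave levels near 0, such as those of Tmem8c, resting on few reads.

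Named genes were all members, the 10 genes with the largest smaller ratio of G3-1 and S3-5 to the highest other library, the 5 most like Myh3 in each muscle by Spearman correlation (mean of 1 CPM or more, prior count of 2), and up to 4 examples of a list. Further list genes were named after their values were seen. The members, lists and libraries left out were chosen with earlier results of these data known. Results were recomputed with DESeq2 1.42.0 or only its size factors, without the filter, with all libraries, without S4-1, with replicate blocks or a term for 3 sets of 32, 28 and 26 libraries in listed order, in fits of 2 groups and leaving out each library in turn. Each library of a group has its own mouse number in its title, and p-values measure the spread between these libraries. The titles number the mice alike for both muscles without saying that the muscles came from 1 mouse, so a block over the mouse was tried across muscles. On simulated data for DEX against non-treated, 80% of 50 genes changed 2-fold were recovered in GA (among 14428 genes). In SO it was 72% of 50 (among 14708 genes). Of 50 genes changed 1.5-fold, 78% were recovered in GA and 52% in SO. Far fewer genes were changed there than passed in the data, so these shares need not hold for the data. Sequences are from RefSeq and positions from GENCODE. Tables and figures used Python 3.11.15, pandas 2.3.3, numpy 2.4.6 and matplotlib 3.10.9.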

Additional observations from a re-analysis of the deposited data

Results flagged for a closer look

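In 144 groups of 4 or 5 libraries, 1 for each member and group, 28 values lay far outside the spread of the others of their group. Of these, 16 were in G3-1 or S3-5, whose values chose the members, and are a description. In G3-1 the values were 1170 CPM for Myh3, 618 for Myh8, 293 for Mybph, 517 for Actc1, 209 for Tnnt2, 63.9 for Myod1, 179 for Tmem8c and 89.4 for Capn6. In S3-5 they were 1022, 570, 175, 589, 273, 68.8, 188 and 110 CPM for the same genes in the same order.

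The other 12 were spread over groups, where chance gives about 1 in 20 groups. Myh3 stood high at 10.1 CPM in G2-3 (GA DEX) and 14.1 CPM in G4-1 (GA JGT02 400 mg/kg). Myh8 stood high at 5.29 CPM in S7-1 (SO JGT04 100 mg/kg) and 4.93 CPM in S9-1 (SO RSV). Mybph stood low at 27.4 CPM in G4-3 (GA JGT02 400 mg/kg) and high at 39.5 CPM in S4-2 (SO JGT02 400 mg/kg). Actc1 stood high at 237 CPM in G2-4 (GA DEX), and Tnnt2 at 4.22 CPM in G5-2 (GA JGT03 100 mg/kg). Myod1 stood high at 22.4 CPM in S1-5 (SO non-treated) and 21.0 CPM in S4-1, the SO library with fast-fibre levels. Tmem8c had no count (0 CPM) in G6-4 (GA JGT03 400 mg/kg), where the other libraries of the group had 1 count each (at most 0.0382 CPM), and stood at 1.42 CPM in S6-3 (SO JGT03 400 mg/kg).

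The DEX response differed between the muscles for 2 members, with log2 differences of SO minus GA of 4.03 for Mybph and 1.04 for Actc1 (edgeR interaction tests). With the mouse as a replicate block that of Mybph was 2.87 and missed the threshold (adjusted p = 0.0515).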

How the results depend on the processing

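DESeq2's Wald test gave the same counts of members called as edgeR in all 6 sets of comparisons. With G3-1 and S3-5 kept in the fits, 4 pairs passed against DEX in GA, all higher, in place of 2, both lower, 1 member passed under DEX in SO in place of 4, 4 members differed between the muscles in place of 6, and 1 response differed between the muscles in place of 2. With the set of libraries as a term 0 GA pairs and 3 SO pairs passed, and in fits of only the groups compared 0 GA and 2 SO pairs, against 2 and 8 (edgeR; 6 and 7 of the 49 GA pairs had an unadjusted p under 0.05, against 9). With the set term Mybph with RSV in SO changed sign (log2 0.031, adjusted p = 0.996). In each muscle that term rests on the only group that stands in both sets, so it cannot separate set from treatment in the other groups. In SO this group holds S4-2, where Mybph was at 39.5 CPM, against 1.66 to 3.54 CPM in the other libraries of the group. The cause of the changes between settings was not tested. In the median, same-numbered libraries did not deviate together (correlations of 0.0019 in GA and 0.0068 in SO, and 0.0027 between the muscles). Single pairs ran from -0.124 to 0.173 in GA, -0.318 to 0.341 in SO and -0.158 to 0.257 between the muscles. Of 41 pairs between the muscles 8 lay above 0.1. Within a muscle the numbers were taken only to name mice, and these medians cannot show whether both muscles came from 1 mouse. With the mouse number as a replicate block 1 GA pair passed, and 1 response differed between the muscles, where that of Myh3 was -0.017 and that of Mybph 2.87 (adjusted p = 0.0515).

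On plain totals the levels in G3-1 and S3-5 were 2318 and 2183 CPM for Myh3, 1225 and 1217 for Myh8, 581 and 374 for Mybph, 1024 and 1259 for Actc1, 415 and 583 for Tnnt2, 127 and 147 for Myod1, 355 and 401 for Tmem8c, and 177 and 234 for Capn6, and 6776 genes were highest in both, 931 of them at least 4 times.

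Leaving out each library in turn gave 2 to 4 members called under DEX in GA and 2 to 4 in SO, 1 to 3 GA pairs and 5 to 9 SO pairs against DEX, 5 to 6 members between the muscles, and 1 to 3 differing responses. The sign changed for Myh3 under DEX in GA (-0.72 to 0.35) and SO (-0.31 to 0.17), Actc1 under DEX in SO (-0.29 to 0.0066), Myod1 between the muscles (-0.037 to 0.16) and Myh3 in the difference of responses (-0.43 to 0.63), none of which had passed. Over 41 values of single members, 455 of these fits kept direction and call, 43 lost the call, 2 gained it and 10 changed sign.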
